A study of Mus musculus with 29 samples.

Results

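Klf4, Klf2, Zeb2, Nr4a1, Maf and Mitf encode transcription factors that act in monocytes and macrophages, and their loci were followed through lists of acetylated chromatin and of factor binding. The 6 genes were chosen by name from 21883 protein-coding genes of the annotation. A locus was the gene span (mm10) with 100 kb on either side. Regions called for H3K27ac, the acetylated form of lysine 27 on histone H3, were merged over 14 libraries into 112909 elements, of which 134 lay at the 6 loci. Peaks called in both libraries of a factor and cell type numbered 32 of 19295 at the 6 loci for IRF8 in cDC1, 6 of 4201 for IRF8 in monocytes and 33 of 15178 for CEBPA in monocytes. CEBPA in cDC1 had 2 such peaks in the genome and 0 at the 6 loci, from libraries with 166 and 72 peaks and 0.01% of tags in peaks.

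Chromatin immunoprecipitation sequencing was done on primary C57BL/6 mouse cells in 22 libraries. H3K27ac was measured in 7 groups of 2: wild-type (WT) LSK, LMPP and cDC1, then LMPP, GMP and MDP of mice that lack the +56 kb Irf8 enhancer (d56kb here), and LMPP of IRF8-deficient mice (IRF8KO). IRF8 and CEBPA were measured in WT cDC1 and WT monocytes (Mo), 2 libraries each. Bone marrow gave the progenitors and monocytes, and spleen the cDC1. The series speaks of biological duplicates and not of which animals they came from, so p-values measure the spread between these libraries, which may be technical. LSK are Lin-, Sca1+ and CD117+ stem and multipotent progenitor cells. LMPP, lymphoid-primed multipotent progenitors, were gated within them as CD135+ and negative for CD150 and IL-7R. GMP, granulocyte-monocyte progenitors, were CD117+ and CD16/32+ without Sca-1, IL-7R or CD115. MDP, monocyte-dendritic cell progenitors, were CD117+ and CD115+ without Sca-1 or IL-7R. For H3K27ac, cDC1 (type 1 classical dendritic cells) were sorted as XCR1+ and CD172a-, with high CD11c and MHC class II. For the factors the cells were enriched on magnetic columns with no flow sort, cDC1 through CD8a and monocytes through CD115. GMP and MDP of WT mice, and H3K27ac in monocytes, were not analysed here, so each comparison of GMP or MDP lies within the d56kb genotype.

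H3K27ac marks active promoters and enhancers. IRF8 is a factor of the IRF family that favours monocytes and cDC1 over neutrophils, and CEBPA is a leucine zipper factor needed for the myeloid lineage. Klf4, a zinc finger factor, is required for Ly6C-high monocytes and acts downstream of IRF8. Klf2, a near relative, is known for quiescence of blood cells and endothelium. Nr4a1, an orphan nuclear receptor, is required for patrolling Ly6C-low monocytes, and KLF2 is known to act on an enhancer upstream of it. Zeb2, a two-handed zinc finger repressor, helps to maintain macrophage identity and is held low in cDC1. Maf (c-MAF), a leucine zipper factor, limits self-renewal of macrophages. Mitf, a helix-loop-helix factor, acts in melanocytes, osteoclasts and mast cells and on lysosomal genes, as do its relatives Tfeb, Tfec and Tfe3.

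The H3K27ac libraries held 1.26 to 10.9 M tags (M, mega), with 15.0% to 55.1% of tags in called regions, 21959 to 31381 regions and 17.7 to 52.1 Mb covered. The lists carry no height, so the measure was the number of bases covered at a locus, scaled to the mean covered length of the libraries and given as scaled kb. In cDC1, 16.4% of tags of replicate 2 were in regions, against 52.3% in replicate 1. The IRF8KO libraries were the shallowest, and 63.3% and 65.6% of their regions had the minimum width of 501 bases. In a 4 kb window at the +56 kb position of Irf8, 0 of 6 d56kb libraries had a called base and 6 of 8 others did; the 2 without were the IRF8KO libraries. That window does not check the IRF8KO deletion, which the files do not show. Of 12 cDC1 marker genes, 10 were called higher in cDC1 than in WT LMPP and 0 lower (16.5% and 24.2% of all genes). Of 12 stem and multipotent progenitor genes, 10 were called lower in d56kb MDP than in d56kb LMPP (10.3% of all genes). The labels of the monocyte libraries were not checked against markers. In bulk cells, fewer cells with a mark and a narrower mark in each cell cannot be told apart.

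Covered bases at the loci were tested over all 14 libraries by limma, with adjustment over 20397 genes (adjusted p threshold 0.05). Among all genes, 160 were higher and 374 lower in WT LMPP than in WT LSK (384 and 12952 without the scaling). The counts were 3366 and 4945 for WT cDC1 against WT LMPP (7249 and 1438), 141 and 40 for d56kb against WT LMPP (5492 and 236), and 521 and 967 for IRF8KO against WT LMPP (88 and 1687). They were 2307 and 2186 for d56kb GMP against LMPP (1956 and 1213), 2222 and 2102 for d56kb MDP against LMPP (1364 and 1460), and 393 and 286 for MDP against GMP (125 and 151). Leaving the scaling out moved the median log2 difference of all genes from 0.02 to -0.81, from -0.16 to 0.38, from -0.01 to 0.47 and from -0.05 to -0.31 in the first 4 of these, in that order. Several comparisons share a group of libraries, WT LMPP in 4 of them and d56kb LMPP in 3, and are therefore not independent.

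Zeb2 spans chr2:44983512-45117442 on the minus strand and is 133931 bases long. Its window held 27 elements, 13 of them inside the span, and 22 were nearer to Zeb2 than to any other coding gene. The other coding gene in the window was Gtdc1. Cover was 22.7 and 18.8 scaled kb in the 2 d56kb MDP libraries and 16.5 and 15.6 in d56kb GMP. It was 11.3 and 11.004 in WT LSK, 7.90 and 7.54 in d56kb LMPP, 6.52 and 6.96 in WT LMPP, 6.48 and 3.65 in IRF8KO LMPP, and 4.62 and 3.09 in WT cDC1. The groups followed in that order without overlap down to WT LMPP, and IRF8KO LMPP and cDC1 overlapped. Zeb2 cover rose in d56kb MDP against d56kb LMPP, from 7.72 ± 0.25 to 20.8 ± 2.7 scaled kb (SD, n = 2 each), a log2 difference of 1.31 ± 0.21 (SE, limma adjusted p = 0.0005171). It also rose in d56kb GMP, by 0.97 ± 0.21 on the log2 scale (limma adjusted p = 0.004188). With elements given to their nearest gene alone, the GMP difference was 1.19 and did not pass (limma adjusted p = 0.08642). MDP and GMP did not differ past the threshold (log2 0.35 ± 0.21, limma adjusted p = 0.5554), though the libraries of the groups did not overlap.

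The widest Zeb2 element lay at chr2:45104933-45117825, 12893 bases long, and took in all 4 start sites that the promoter table lists for Zeb2. Unscaled, it was covered over 11667 and 12321 bases in the MDP libraries, 9741 and 9050 in GMP and 6169 and 5502 in WT LSK. In d56kb LMPP it had 4075 and 2453 bases, in WT LMPP 2229 and 1339, in cDC1 2121 and 501, and in IRF8KO LMPP 1140 and 0. The MDP calls ran nearly end to end, which follows in part from the merging, as they set most of the element's length. The 3 LMPP groups and cDC1 held shorter stretches of it. The outermost start site, chr2:45117442, was acetylated in both GMP and both MDP libraries, in 1 WT LSK and 1 d56kb LMPP library, and in 0 libraries of WT LMPP, cDC1 or IRF8KO LMPP. Over all promoter windows, the share acetylated in both libraries ran from 21.7% in IRF8KO LMPP and 29.7% in WT LMPP to 43.9% in WT LSK, with 37.2% in cDC1, 38.8% in d56kb LMPP, 41.3% in GMP and 39.8% in MDP. The innermost, chr2:45110277, was acetylated in 12 of 14 libraries. The 2 promoters are shown because the groups differed in which of them was acetylated (GRCm38.p6, RefSeq, 250 bases before to 50 after the start, minus strand, 5′ to 3′). Capitals mark a CEBP-type match of TTGCNNAA.
Zeb2 outermost start, chr2:45117393-45117692: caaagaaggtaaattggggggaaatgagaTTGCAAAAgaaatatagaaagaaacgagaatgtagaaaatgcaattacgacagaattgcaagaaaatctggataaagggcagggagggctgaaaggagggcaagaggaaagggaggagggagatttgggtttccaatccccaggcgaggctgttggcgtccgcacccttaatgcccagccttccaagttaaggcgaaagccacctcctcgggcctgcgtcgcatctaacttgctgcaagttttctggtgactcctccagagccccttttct
Zeb2 innermost start, chr2:45110228-45110527: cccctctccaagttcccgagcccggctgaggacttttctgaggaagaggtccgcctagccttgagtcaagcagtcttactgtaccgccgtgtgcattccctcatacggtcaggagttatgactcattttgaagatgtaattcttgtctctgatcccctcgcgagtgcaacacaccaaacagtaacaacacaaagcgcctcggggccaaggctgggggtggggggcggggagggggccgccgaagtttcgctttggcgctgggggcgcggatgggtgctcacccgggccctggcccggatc
The match TTGCAAAA stood at -221 from the outermost start, and 10.2% of 21262 promoter windows of coding genes hold one on either strand. A CEBPA peak lay on this window in 1 of 2 monocyte libraries. The innermost window held no match to any of the 9 motifs searched. Its GC content was 60.7%, against 49.3% at the outermost start and a median of 56.3% over all windows.

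Within the gene, an element 31.1 kb into Zeb2 (chr2:45085155-45087616) was called in both GMP libraries (1657 and 1951 bases) and both MDP libraries (501 and 1304), and in none of the other 10. A CEBPA peak of both monocyte libraries lay in it. An element at 66.6 kb (chr2:45048657-45053111) had 2081 and 3947 bases in MDP and 1830 and 1972 in GMP. It had 1954 and 1194 in WT LSK, 501 and 501 in d56kb LMPP, and 0 in WT LMPP, cDC1 and IRF8KO LMPP. That element held 1 IRF8 peak of cDC1 and 2 CEBPA peaks of monocytes. By contrast, the element at 190.7 kb, nearer to Gtdc1, was called in all 14 libraries, at 640 to 2329 bases.

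Mitf spans chr6:97807002-98021360 (214359 bases, plus strand), with no other coding gene within 100 kb. Of its 21 elements, 16 were called in 1 library only, and 4 were called in both libraries of any group. Over all 112909 elements, 64.0% were called in 1 library only. Cover was 14.9 and 12.3 scaled kb in d56kb MDP and 6.50 and 7.22 in d56kb GMP. It was 4.07 and 2.05 in cDC1, 1.97 and 3.78 in IRF8KO LMPP, 1.83 and 1.67 in WT LSK, 0.78 and 2.09 in WT LMPP, and 0.46 and 0.50 in d56kb LMPP. In the 3 LMPP groups every call had the minimum width of 501 bases, and 0 elements were called in both libraries of a group. Each d56kb LMPP library had 1 such call, at 79.8 kb in replicate 1 and at 307.7 kb in replicate 2. The small SD of that group below thus reflects the scaling of single calls and not a shared element. MDP lay above GMP, and GMP above the other 5 groups, with no overlap. Mitf cover rose from 0.48 ± 0.03 scaled kb in d56kb LMPP to 6.86 ± 0.50 in GMP (log2 2.41 ± 0.32, limma adjusted p = 0.0001204). It rose to 13.6 ± 1.8 in MDP (log2 3.302 ± 0.32, limma adjusted p = 9.71e-06). Between MDP and GMP the difference of 0.89 ± 0.32 did not pass (limma adjusted p = 0.1668). In cDC1 against WT LMPP the difference was 0.75 ± 0.32, which did not pass either (limma adjusted p = 0.0727), and replicate 2 of cDC1 lay within the range of WT LMPP. It did pass, higher in cDC1, in 5 of 10 alternatives: no scaling (log2 1.213, limma adjusted p = 0.007187), 50 kb flanks (0.9311, 0.02715), regions above the minimum width (1.976, 0.0001973), and without WT LMPP replicate 2 (1.143, 0.01888) or cDC1 replicate 2 (1.113, 0.03262). Without WT LMPP replicate 1 or cDC1 replicate 1 the difference was 0.351 and 0.381 (limma adjusted p of 0.4467 and 0.4754).

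The 4 Mitf elements called in both libraries of a group lay between the start and 49.3 kb into the gene. The promoter element, chr6:97806065-97807778, was called in both libraries of WT LSK (501 and 641 bases), cDC1 (1377 and 738), GMP (891 and 872) and MDP (979 and 1249). It was called in none of the 6 LMPP libraries. An intragenic element at 11.2 kb, chr6:97813940-97822660, was covered over 6731 and 8008 bases in MDP and 5687 and 5879 in GMP. There it had 3037 and 1269 bases in cDC1, 763 and 1002 in WT LSK and 0 in the LMPP libraries. Both elements were thus called in LSK, cDC1, GMP and MDP and not in the 3 LMPP groups. The next element, at 22.3 kb, was called in both libraries of LSK, GMP and MDP and in 1 IRF8KO library. The last, at 49.3 kb (chr6:97854745-97857922), was called in the 2 MDP libraries alone, over 2583 and 2755 bases. An IRF8 peak of cDC1, an IRF8 peak of monocytes and a CEBPA peak of monocytes, each called in both libraries, overlapped it. The IRF8 peaks lay across its edge and were acetylated in 1 MDP library, and the CEBPA peak in 2.

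Mitf is transcribed from several promoters, and the most downstream one drives the melanocyte isoform, where CREB is known to act on a CRE. The table lists 3 starts, at chr6:97807058, chr6:97929817 and chr6:97991783. The first was acetylated in 8 libraries, and the other 2 in 0 of 14. The first and the last are shown to set the acetylated promoter beside one that was not (GRCm38.p6, RefSeq, plus strand, 5′ to 3′). Capitals mark TTGCNNAA in the first and TGACGTCA, the full CRE, in the last.
Mitf first start, chr6:97806808-97807107: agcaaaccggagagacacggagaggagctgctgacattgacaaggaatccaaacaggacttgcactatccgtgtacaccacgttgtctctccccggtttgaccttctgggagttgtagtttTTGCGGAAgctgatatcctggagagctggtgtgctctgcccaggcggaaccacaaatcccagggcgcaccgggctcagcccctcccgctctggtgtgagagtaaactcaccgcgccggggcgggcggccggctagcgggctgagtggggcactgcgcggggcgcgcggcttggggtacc
Mitf last start, chr6:97991533-97991832: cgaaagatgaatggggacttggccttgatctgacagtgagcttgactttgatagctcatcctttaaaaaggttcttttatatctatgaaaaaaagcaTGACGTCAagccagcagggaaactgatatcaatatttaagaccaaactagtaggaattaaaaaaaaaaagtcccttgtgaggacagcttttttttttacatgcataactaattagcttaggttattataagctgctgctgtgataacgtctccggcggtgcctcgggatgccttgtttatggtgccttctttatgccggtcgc
The first window held TTGCGGAA at -129, with 22 CpG dinucleotides against a median of 13 over all windows. The last held TGACGTCA at -153, which 2.23% of windows hold, and 8 CpG. The middle window held TTGCAGAA at 35 and CAGGTG, a ZEB-type E-box found in 19.7% of windows, at -136. An IRF8 peak lay on the first window in 1 of the 2 cDC1 libraries.

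**Figure D1:**
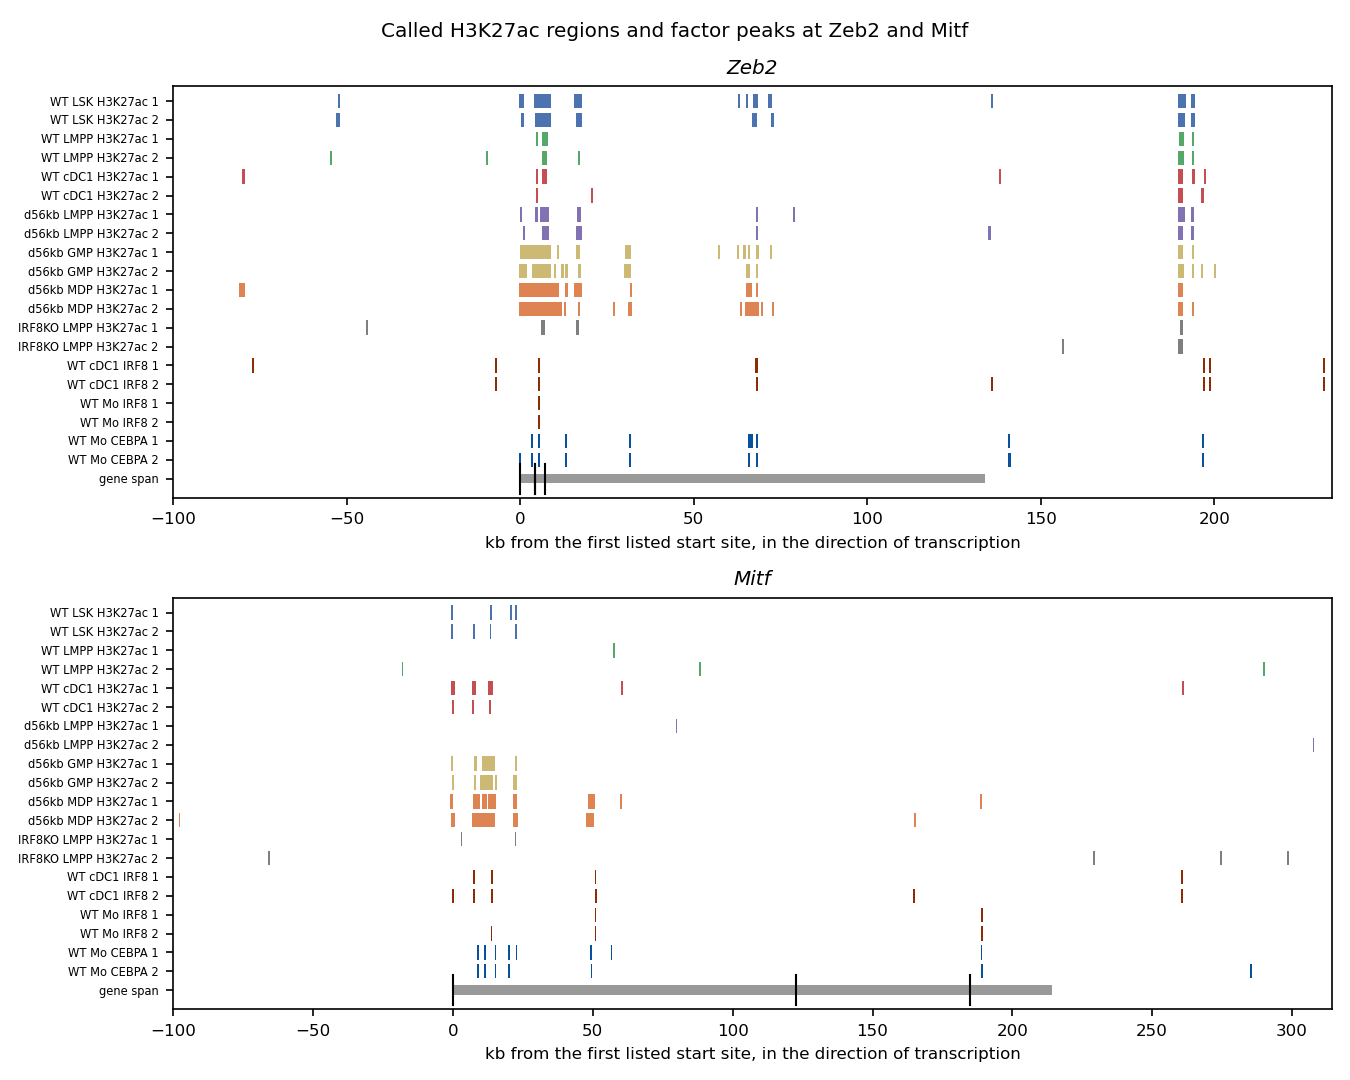
Called H3K27ac regions (bars, 1 row per library) and IRF8 and CEBPA peaks at Zeb2 and Mitf, against distance in kb from the first listed start in the direction of transcription; the grey bar is the gene span and black ticks are listed starts. The bars over the Zeb2 starts and at 11.2 kb of Mitf were longest in the d56kb MDP and GMP rows, and the Mitf element at 49.3 kb stood in the 2 MDP rows alone.

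Klf4 spans chr4:55527137-55532475 on the minus strand, alone among coding genes in its window. Its 20 elements covered 6.07 and 4.87 scaled kb in MDP, 3.93 and 5.38 in IRF8KO LMPP and 4.53 and 4.30 in WT LSK. Cover was 5.002 and 3.66 in d56kb LMPP, 2.87 and 5.21 in WT LMPP, 3.62 and 1.99 in cDC1 and 2.56 and 1.54 in GMP. Each group overlapped its neighbour in the order of means. Apart from 851 bases near the start in replicate 2, every IRF8KO call had the minimum width of 501 bases. In that group 2 elements were called in both libraries. WT LMPP replicate 2 likewise held calls of 501 bases apart from 752 bases near the start. No Klf4 difference passed the threshold in the 7 comparisons. The smallest adjusted p was that of MDP against GMP, where the libraries did not overlap (5.47 ± 0.85 and 2.05 ± 0.72 scaled kb, log2 1.099 ± 0.29, limma adjusted p = 0.05253). GMP against LMPP gave -0.82 ± 0.29 (limma adjusted p = 0.0572).

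The Klf4 element over the gene and its start, chr4:55530038-55534914, was called in all 14 libraries. It was covered over 3500 and 1942 bases in cDC1, 2475 and 2920 in MDP and 1767 and 1751 in GMP, and over 501 to 1797 in LSK and the LMPP groups. An element at -53.9 kb had 635 and 1453 bases in MDP, 1951 and 626 in LSK, 1804 and 501 in d56kb LMPP and 0 in GMP and cDC1. One at -91.0 kb (chr4:55622534-55624332) was called in both MDP libraries (1494 and 1417 bases) and in 1 library each of LSK, d56kb LMPP and GMP. CEBPA peaks of monocytes lay at -2.2 kb, in a stretch of the promoter element that was called in the 2 MDP libraries alone, at -91.1 kb, in the distal element, and at -98.0 kb, where no region was called. The only IRF8 peak that Klf4 shared between cDC1 and monocytes lay 21.0 kb past the start, and 0 of 14 libraries had an acetylated region there. The promoter is shown because its window was acetylated in 10 libraries, among them both of cDC1, d56kb LMPP, GMP and MDP (GRCm38.p6, RefSeq, minus strand, 5′ to 3′, with CACGTG, the E-box of helix-loop-helix factors, in capitals).
Klf4 start, chr4:55532426-55532725: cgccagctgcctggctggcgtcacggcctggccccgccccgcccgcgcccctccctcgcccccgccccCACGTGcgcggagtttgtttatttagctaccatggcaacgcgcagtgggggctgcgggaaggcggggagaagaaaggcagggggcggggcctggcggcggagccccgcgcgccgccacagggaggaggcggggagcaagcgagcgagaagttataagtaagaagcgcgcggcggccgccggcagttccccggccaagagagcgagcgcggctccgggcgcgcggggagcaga
The match lay at -182 from the start, and 7.84% of promoter windows hold one. The window was 74.3% GC and held 40 CpG.

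Klf2 spans chr8:72319062-72321654 (plus strand) in a window shared with Ap1m1, Eps15l1 and Fam32a, and 6 of its 28 elements were nearest to Klf2 itself. Cover was 20.1 and 19.97 scaled kb in d56kb LMPP, 20.1 and 19.2 in WT LMPP and 18.0 and 19.6 in IRF8KO LMPP. It was 18.0 and 15.1 in WT LSK, 14.5 and 15.9 in MDP, 12.7 and 14.8 in cDC1 and 11.3 and 10.4 in GMP. The 3 LMPP groups overlapped at the top and GMP lay below the rest. Klf2 cover fell in GMP against d56kb LMPP (10.9 ± 0.6 against 20.04 ± 0.09 scaled kb, log2 -0.83 ± 0.13, limma adjusted p = 0.0003621). It fell less in MDP (log2 -0.38 ± 0.13, limma adjusted p = 0.0467), a call that was lost in 9 of 10 alternatives, among them each left-out library (limma adjusted p of 0.09115 to 0.2385), no scaling (0.2612) and the fit with the replicate number as a block (0.05843). It was also lower in cDC1 than in WT LMPP (log2 -0.49 ± 0.13, limma adjusted p = 0.006608), but the sign turned without the scaling (0.25, limma adjusted p = 0.3937), and the call was lost without cDC1 replicate 1 (limma adjusted p = 0.06891) and with 50 kb flanks, the nearest gene or wider regions only. MDP against GMP gave 0.45 ± 0.13 (limma adjusted p = 0.07191).

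The promoter element of Klf2, chr8:72317151-72324011, was called in all 14 libraries, over 6506 and 6055 bases in cDC1 and 1222 and 1042 in IRF8KO LMPP, the widest and the narrowest pairs. These widths are unscaled, and the IRF8KO libraries were the shallowest. At 3.6 kb in this element an IRF8 peak of monocytes (chr8:72322535-72322824) overlapped an IRF8 peak of cDC1 and a CEBPA peak of monocytes. The element at 31.4 kb, nearer to Eps15l1, was called in 12 libraries and in neither WT LMPP library. It was covered over 2463 and 2605 bases in cDC1 and 501 and 501 in IRF8KO LMPP.

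Nr4a1 spans chr15:101253902-101274795 and its listed start is chr15:101266846 (plus strand). The window held 5 other coding genes, Acvr1b, Atg101, Grasp, Krt80 and Smim41, and 3 of 29 elements were nearest to Nr4a1. Scaled cover per window length was the highest of the 6 in each library, at 9.27% to 18.5%, against 5.13% to 9.92% for Klf2, 0.925% to 6.79% for Zeb2, 0.749% to 2.96% for Klf4, 0.11% to 3.59% for Mitf and 0% to 1.37% for Maf. Cover was 37.1 and 41.0 scaled kb in d56kb LMPP, 37.4 and 35.5 in MDP, 33.7 and 30.1 in WT LMPP and 30.6 and 31.7 in WT LSK. It was 31.3 and 24.2 in IRF8KO LMPP, 26 and 27.1 in cDC1 and 26.9 and 20.5 in GMP. Over the whole window the first pair of groups lay above the other 5 without overlap, and those 5 overlapped from one to the next. Nr4a1 cover fell in GMP against d56kb LMPP (23.7 ± 4.6 against 39.0 ± 2.7 scaled kb, log2 -0.71 ± 0.13, limma adjusted p = 0.001507). It was higher in MDP than in GMP (log2 0.61 ± 0.13, limma adjusted p = 0.02188). That call was lost without the scaling, without GMP replicate 2 and without either MDP library, with limma adjusted p up to 0.3205. Over the 3 elements nearest to Nr4a1 alone, the fall in GMP was larger (log2 -1.73 ± 0.18, limma adjusted p = 0.0001704), and so was the MDP to GMP difference (1.15 ± 0.18, limma adjusted p = 0.009176). MDP did not rank high over these elements, with a mean of 14.4 scaled kb. The means were 21.9 in d56kb LMPP, 17.7 in WT LMPP and 16.8 in both LSK and cDC1. MDP against d56kb LMPP gave -0.58 ± 0.18 there (limma adjusted p = 0.05459) and -0.09 ± 0.13 over the window (limma adjusted p = 0.7207).

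The widest Nr4a1 element ran across the listed start and the sequence upstream of it, chr15:101251410-101268871 (17462 bases), and was called in all 14 libraries. It was covered over 15735 and 14145 bases in d56kb LMPP, 15706 and 15321 in LSK, 14450 and 11962 in cDC1 and 8019 and 9402 in MDP. In WT LMPP it had 7445 and 5706 bases, in GMP 2376 and 2424, and in IRF8KO LMPP 2386 and 1961. GMP and IRF8KO LMPP were the narrow groups, with 3.03 and 2.61 M tags in GMP and 1.26 and 1.47 M in IRF8KO LMPP. Replicate 1 of MDP (1.83 M tags) and of WT LMPP (2.001 M) were shallower than GMP and wider here. These widths are unscaled, and the share of tags in regions differed between the libraries too. The part of depth in the widths was not tested. The element before it, at -21.3 kb, was also called in all 14 libraries, over 4567 and 3901 bases in GMP and 8223 and 8150 in d56kb LMPP. In the widest element, chr15:101251410-101268871, lay 3 IRF8 peaks of cDC1 and 4 CEBPA peaks of monocytes, the nearest to the start at -0.8 kb (CEBPA). In this element IRF8 peaks of cDC1 at -14.0 and -4.2 kb overlapped CEBPA peaks of monocytes at -14.1 and -4.0 kb, in that order. Farther on, an element at 43.1 kb was called in GMP (4390 and 3891 bases) and MDP (4033 and 4275) and in none of the other 10 libraries, with a CEBPA peak in it. Its neighbour at 52.8 kb was called in every library but the 2 of cDC1, at 4956 to 8046 bases. Both were nearest to Smim41. An element at 8.9 kb, just past the gene end, was called in the 2 cDC1 libraries alone (1311 and 698 bases) and held an IRF8 peak of cDC1.

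**Figure D2:**
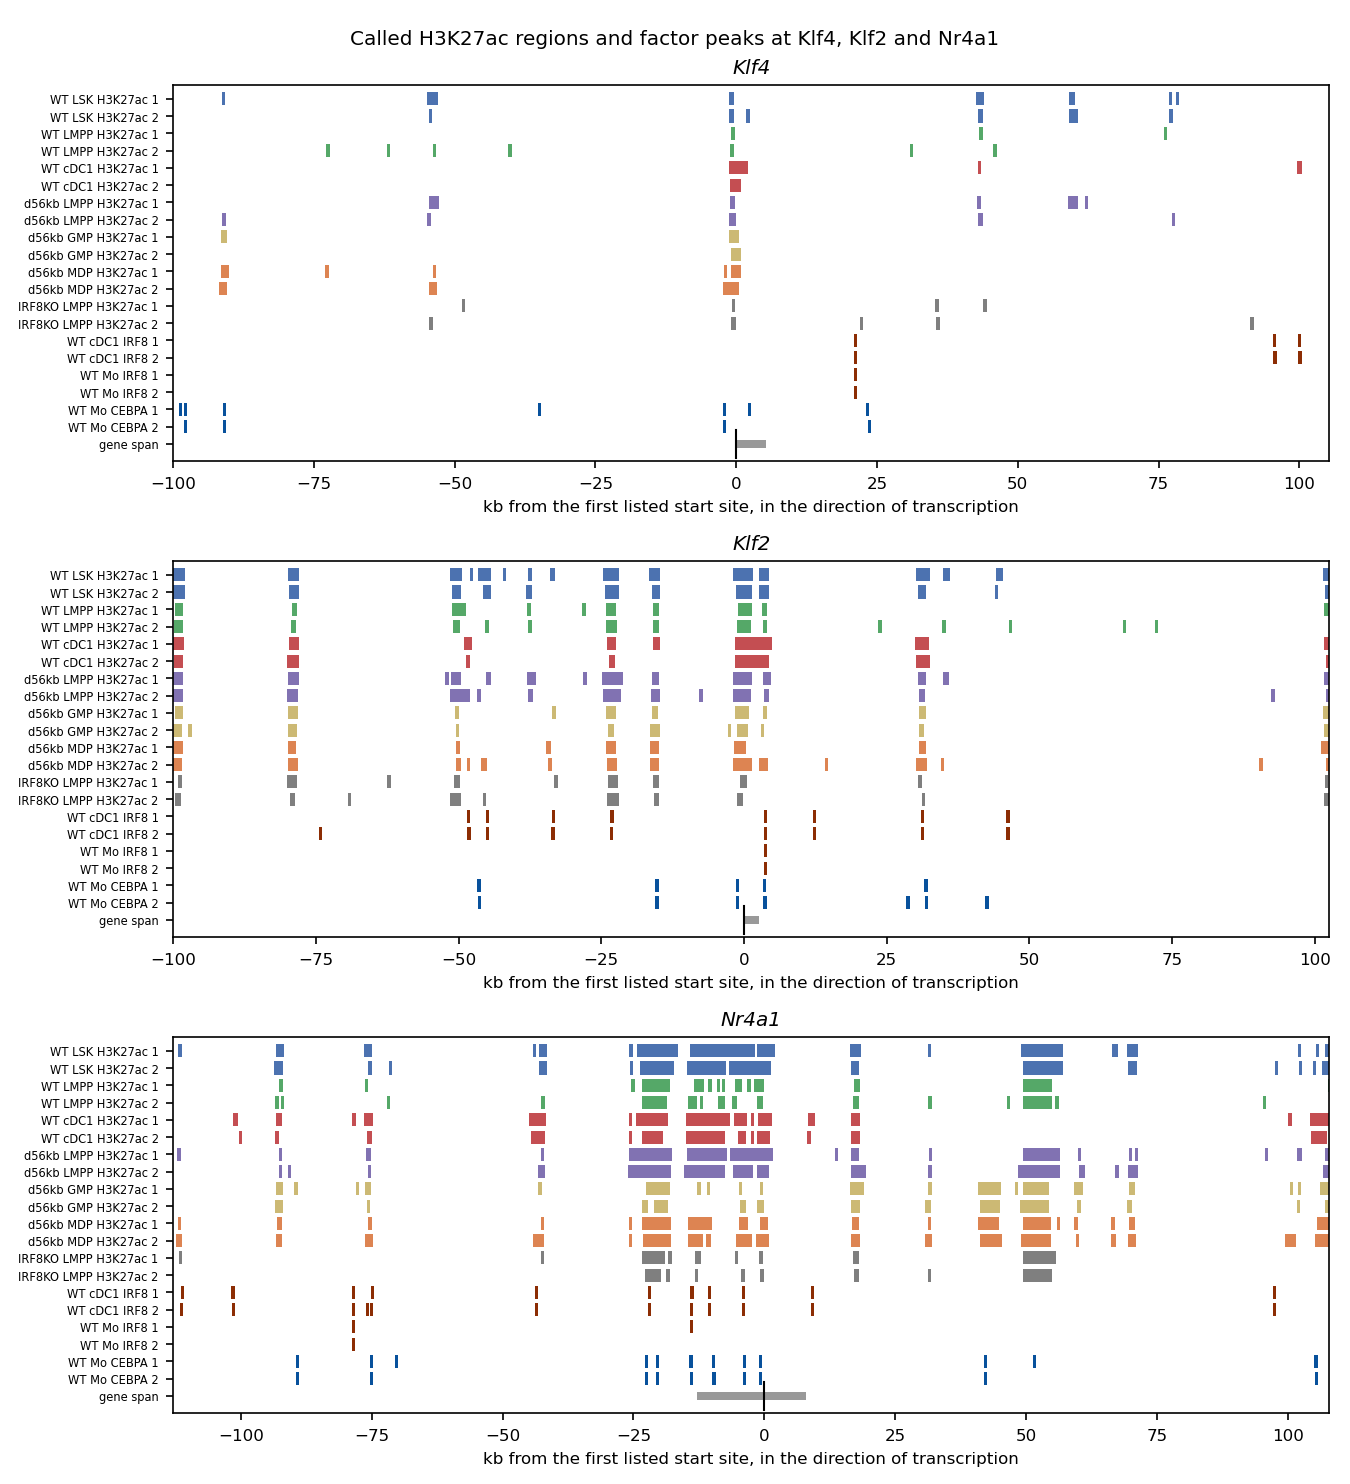
Called H3K27ac regions (bars, 1 row per library) and IRF8 and CEBPA peaks at Klf4, Klf2 and Nr4a1, against distance in kb from the first listed start in the direction of transcription; the grey bar is the gene span. At Nr4a1 the bars just upstream of the start were long in LSK, cDC1 and d56kb LMPP and short in GMP, and the element at 43.1 kb appeared in GMP and MDP.

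Maf spans chr8:115703253-115706894, with no other coding gene in the window. Its 9 elements held 2.19 and 2.78 scaled kb in WT LMPP, 1.97 and 0.94 in IRF8KO LMPP, 1.19 and 0.87 in cDC1 and 1.14 and 0.84 in LSK. GMP had 0.45 and 0.99, d56kb LMPP 1.03 and 0, and MDP 0 and 0.84. WT LMPP lay above every other group, but no comparison passed. The difference of d56kb LMPP from WT LMPP was -1.29 ± 0.39 (limma adjusted p = 0.1223), from single calls of 501 to 904 bases, and replicate 2 of d56kb LMPP had 0. An element that overlapped the edge of the span, chr8:115706860-115708527, was called in 10 libraries, at most over 1668 bases (cDC1), and in neither IRF8KO library. Its call reached the span itself in 1 library, of cDC1. The 1 factor peak in the window was of CEBPA in monocytes, in sequence with no acetylated call. The promoter table used here has no entry for Maf.

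**Figure D3:**
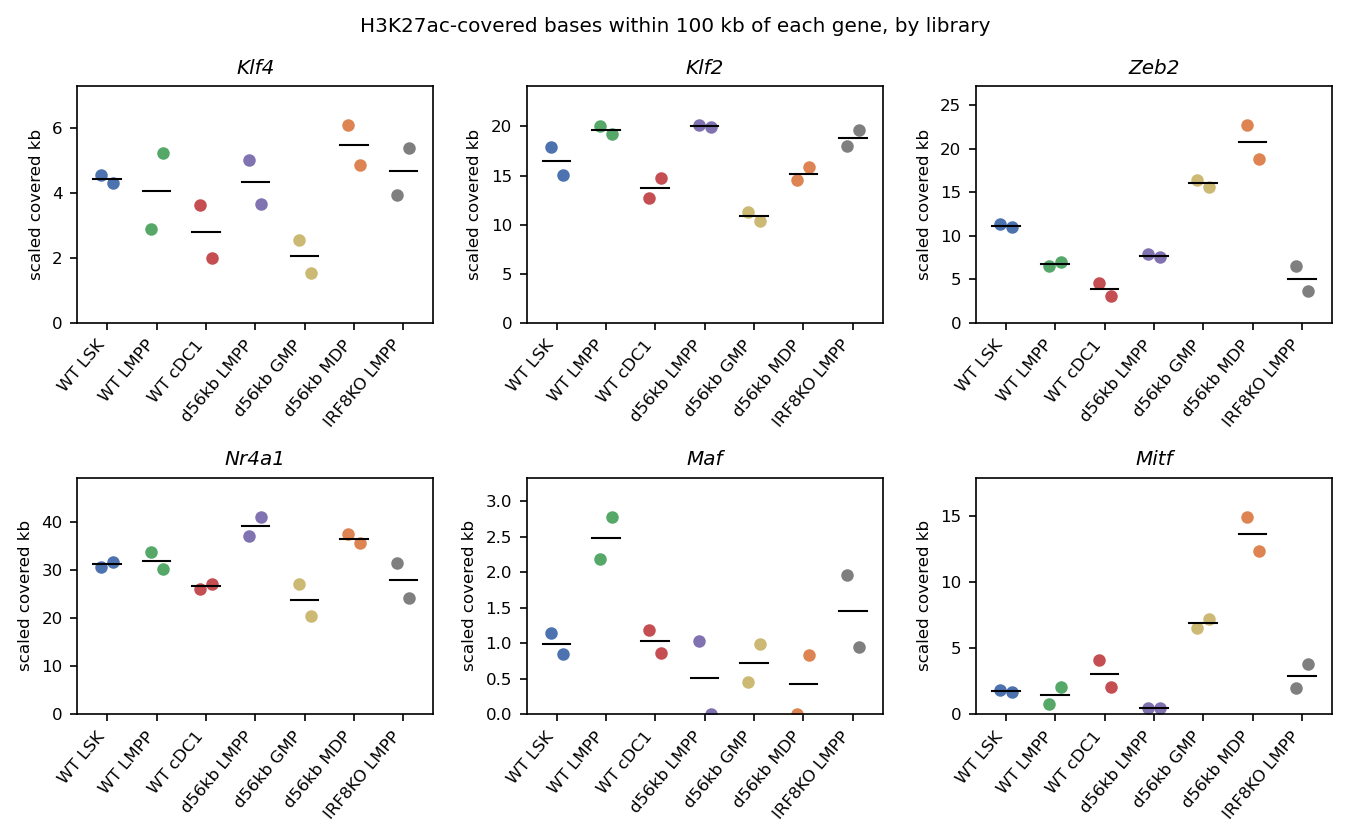
H3K27ac-covered bases (scaled kb) within 100 kb of each gene in the 14 libraries, by group (points are libraries, lines are means of 2); each panel has its own axis, which starts at 0. Zeb2 and Mitf were highest in d56kb MDP and then GMP, and Klf4, Klf2 and Nr4a1 had their lowest means in GMP.

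Set side by side, 4 of the 6 genes were called in d56kb GMP against d56kb LMPP (Zeb2 and Mitf higher, Klf2 and Nr4a1 lower), where 22.0% of all genes were called (11.3% higher, 10.7% lower). In d56kb MDP against d56kb LMPP, 3 were called (Zeb2 and Mitf higher, Klf2 lower), against 21.2% of all genes (10.9% higher, 10.3% lower). In MDP against GMP the call was Nr4a1 alone, against 3.33% (1.93% higher, 1.4% lower). In cDC1 against WT LMPP, 2 were called lower, Klf2 and Zeb2 (for Zeb2 log2 -0.69 ± 0.21, limma adjusted p = 0.01628), against 40.7% called. The Zeb2 call was lost in 6 of 10 alternatives, with a difference of -0.03 without the scaling (limma adjusted p = 0.9792), and without WT LMPP replicate 2 or cDC1 replicate 2. None of the 6 was called in WT LMPP against LSK (2.62% of genes called, 0.784% higher and 1.83% lower), in d56kb against WT LMPP (0.887%, 0.691% and 0.196%) or in IRF8KO against WT LMPP (7.3%, 2.55% and 4.74%). At an unadjusted p under 0.05, limma gave 1, 2 and 1 of the 6 in these, beside 4135, 3325 and 4795 of all 20397 genes, so nothing is read from them. They were Zeb2 in LMPP against LSK (6.74 ± 0.31 against 11.2 ± 0.2 scaled kb, log2 -0.65 ± 0.21, limma adjusted p = 0.09992), Nr4a1 and Maf in d56kb LMPP, and Mitf in IRF8KO LMPP (log2 0.68 ± 0.32, limma adjusted p = 0.2058). For Nr4a1 the d56kb difference was 0.28 ± 0.13 (limma adjusted p = 0.3062). Without the scaling, 5 of the 6 were called in LMPP against LSK and 2 in d56kb against WT LMPP, beside the shifts of all genes given above.

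**Figure D4:**
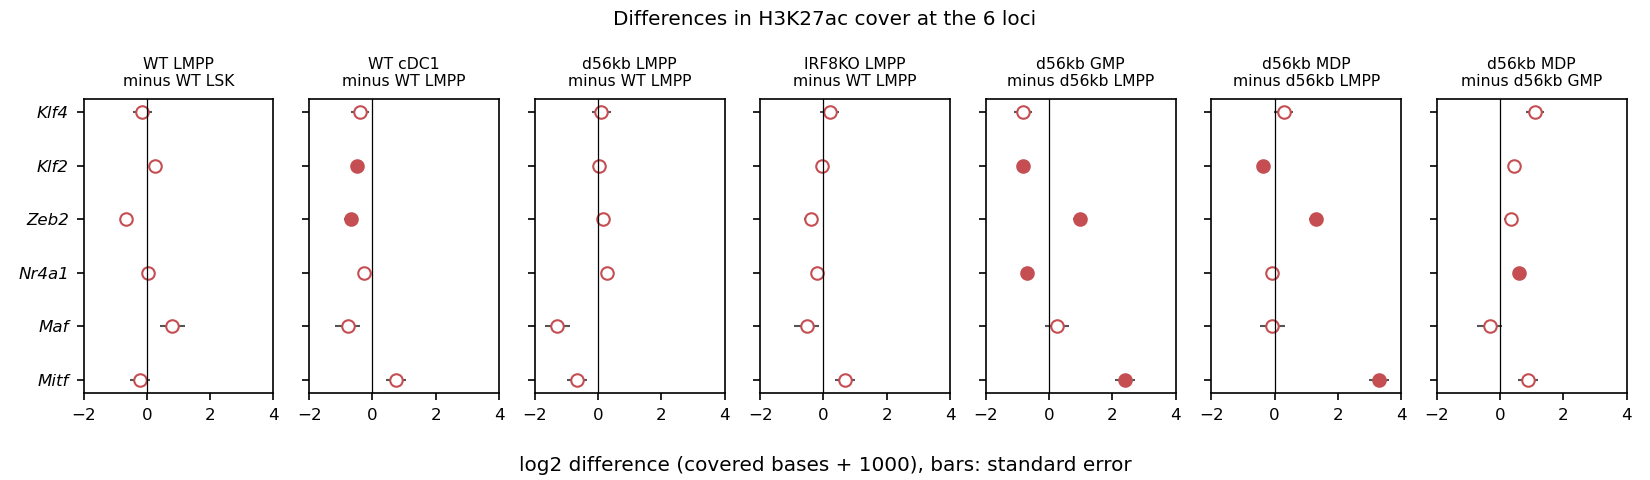
Log2 differences of covered bases (plus 1000) with limma standard errors for the 6 genes in 7 comparisons; filled points passed an adjusted p of 0.05. Mitf and Zeb2 lay to the right in GMP and MDP against d56kb LMPP, while the points for the d56kb and IRF8KO LMPP against WT LMPP are all open.

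Single elements were counted as gained where both libraries of the first group and no library of the second had a call, and as lost in the opposite case. With 2 libraries against 2, no two-sided exact permutation p can fall under 0.33, so none is given. From WT LSK to WT LMPP, 12 of 73 elements at the 6 loci were lost and 0 gained, against 12.1% and 0.164% of all elements. These included the Mitf elements at the start, 11.2 and 22.3 kb and the Zeb2 elements at 66.6, 72.2 and -52.5 kb. From WT LMPP to cDC1, 4 of 67 were gained and 2 lost (12.2% and 4.61% of all). In d56kb against WT LMPP, 4 of 72 were gained and 0 lost (6.16% and 0.28%), at Klf2, Zeb2 and Nr4a1. The gained elements at 31.4 kb of Klf2, 66.6 kb of Zeb2 and 70.3 kb of Nr4a1 were among those lost from WT LSK to WT LMPP. The gained element at 60.2 kb of Nr4a1 was not called in LSK. WT LMPP libraries had 15.0% to 23.7% of tags in regions, and d56kb LMPP libraries 36.8% to 38.1%. The part of this difference in the counts was not tested. In IRF8KO against WT LMPP, 2 of 71 were gained and 4 lost (0.627% and 2.51%), and the calls behind them were 501 to 1002 bases wide. The lost ones were the Maf element at the edge of the span, 1 element upstream of Klf2, 1 near Gtdc1 and 1 near Acvr1b. From d56kb LMPP to GMP, 5 of 69 were gained and 4 lost (9.69% and 6.72%), and to MDP 7 of 73 were gained and 2 lost (7.63% and 7.2%). From GMP to MDP, 4 of 64 were gained and 1 lost (3.42% and 5.06%), with the Klf4 element at -53.9 kb and the Mitf element at 49.3 kb among the gains. By locus, against d56kb LMPP, Mitf gained 3 of 5 elements in GMP and 4 of 10 in MDP, and each other locus at most 1. These counts carry no test.

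Factor peaks were unevenly spread over the 6 loci. Of coding genes, 73.3% had an IRF8 peak of cDC1 within 100 kb, 39.3% an IRF8 peak of monocytes, 69.4% a CEBPA peak of monocytes and 0.0457% a CEBPA peak of cDC1. For IRF8 in cDC1, Nr4a1 had 11 peaks, Klf2 8, Zeb2 6, Mitf 4, Klf4 3 and Maf 0, where the median gene had 2. For IRF8 in monocytes, Mitf had 2, Klf4, Klf2, Zeb2 and Nr4a1 1 each, and Maf 0, with a median of 0. For CEBPA in monocytes, Nr4a1 had 10, Zeb2 8, Mitf 6, Klf2 5, Klf4 3 and Maf 1, with a median of 2. Nr4a1 lay above 97.8% of genes for IRF8 in cDC1 and 97.9% for CEBPA, and Zeb2 above 94.6% for CEBPA; windows differ in length and hold different numbers of genes, so this is a description. The IRF8 list of monocytes was also the smaller in the genome, at 4201 against 19295 peaks. In the IRF8 libraries, 2.19% and 2.21% of tags were in peaks in monocytes, against 5.42% and 6.0% in cDC1. For CEBPA it was 0.01% in both cDC1 libraries, against 5.15% and 3.92% in monocytes. The part of enrichment in these peak counts was not tested.

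**Figure D5:**
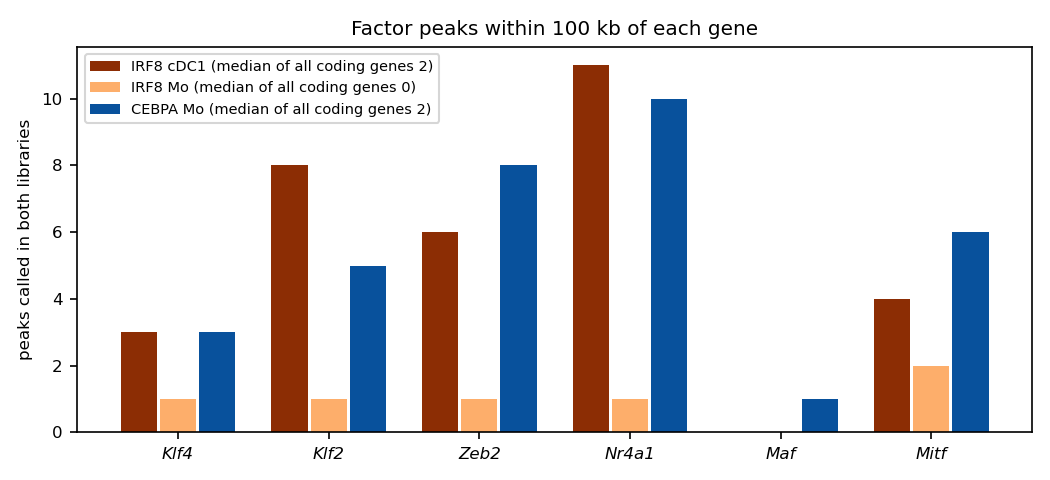
Number of peaks called in both libraries within 100 kb of each gene, for IRF8 in cDC1, IRF8 in monocytes and CEBPA in monocytes (bars start at 0). Nr4a1 had 11 and 10 peaks of IRF8 in cDC1 and CEBPA in monocytes, and Maf had 1 peak in all.

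Of the 6 IRF8 peaks of monocytes, 5 overlapped an IRF8 peak of cDC1 (82.5% of all such peaks did) and 3 a CEBPA peak of monocytes (32.4%). The peak without a cDC1 counterpart lay 188.9 kb into Mitf, chr6:97995806-97996145, and coincided with a CEBPA peak. Of the 33 CEBPA peaks, 7 overlapped an IRF8 peak of cDC1, or 21.2% against 15.8% of all. IRF8 of both cell types and CEBPA of monocytes overlapped at 2 sites, at 3.6 kb of Klf2 and at 5.3 kb of Zeb2 (IRF8 of monocytes, chr2:45112006-45112362). The Zeb2 site lay in the wide start element. Its IRF8 peak of monocytes was acetylated in both libraries of LSK, GMP and MDP, in 1 of cDC1 and in 0 of the LMPP libraries. The CEBPA peak there was acetylated in the same libraries and in 1 d56kb LMPP library besides.

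The CEBPA peaks of monocytes were next set against the acetylated regions of each group. In MDP 22 of 33 were acetylated in both libraries (66.7%, against 43.2% of all CEBPA peaks), in GMP 15 (45.5% against 44.4%), in d56kb LMPP 12 (36.4% against 24.3%) and in WT LSK 14 (42.4% against 31.0%). In cDC1 11 were acetylated (33.3% against 26.2%), in WT LMPP 5 (15.2% against 15.8%) and in IRF8KO LMPP 4 (12.1% against 10.1%). By gene, MDP had 6 of 8 at Zeb2, 4 of 6 at Mitf, 2 of 3 at Klf4, 7 of 10 at Nr4a1, 3 of 5 at Klf2 and 0 of 1 at Maf. The d56kb LMPP had 1 of 8 at Zeb2, 0 of 6 at Mitf and 0 of 3 at Klf4, but 7 of 10 at Nr4a1 and 4 of 5 at Klf2. Most CEBPA sites of Zeb2, Mitf and Klf4 were thus acetylated in MDP and few in d56kb LMPP, while most sites of Nr4a1 and Klf2 were acetylated in both. These genes differed in GMP, which had 5 of 8 at Zeb2, 2 of 6 at Mitf and 0 of 3 at Klf4. At Nr4a1 GMP had 4 of 10 and at Klf2 4 of 5. The IRF8 peaks of cDC1 were acetylated in both cDC1 libraries at 13 of 32 (40.6% against 37.8%). In the other groups they were acetylated at 12 of 32 in LSK (37.5% against 22.4%) and MDP (37.5% against 19.6%), 9 in d56kb LMPP (28.1% against 15.9%), 7 in GMP (21.9% against 17.9%), and 3 each in WT LMPP (9.38% against 9.59%) and IRF8KO LMPP (9.38% against 5.44%). Of the 6 IRF8 peaks of monocytes, 2 were acetylated in both LSK libraries (29.9% of all such peaks), 1 each in WT LMPP (13.2%), cDC1 (36.6%), d56kb LMPP (20.3%), GMP (26.7%) and MDP (34.3%), and 0 in IRF8KO LMPP (7.05%). Peaks at 1 locus are not independent of each other, and these counts carry no test.

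Relatives of the 6 genes were read from a list of 20 KLF, ZEB, NR4A, MAF and MiT/TFE family genes, all of them tested. In MDP against d56kb LMPP, 5 were higher and 3 lower, with a median log2 difference of 0.12 (0 over all genes), where 10.9% and 10.3% of all genes were called higher and lower. Higher were Tfec, an Mitf relative of macrophages (2.86 and 2.35 to 7.62 and 9.41 scaled kb, log2 1.40 ± 0.34, limma adjusted p = 0.007942), and Tfeb, a regulator of lysosomal genes (log2 1.16 ± 0.17, limma adjusted p = 0.0002436). Klf11 was higher too (log2 1.117 ± 0.29, limma adjusted p = 0.01193). Lower were Zeb1, the paralog of Zeb2 (3.39 and 4.16 to 1.28 and 0.71 scaled kb, log2 -1.27 ± 0.25, limma adjusted p = 0.002502), Klf12 and Nr4a2 (log2 -0.90 ± 0.29, limma adjusted p = 0.04049). Klf12 was listed at 0 in both MDP and both GMP libraries. In GMP against d56kb LMPP, 5 were higher (Tfec, Klf11 and Klf7 most) and 1 lower (Klf12), against 11.3% and 10.7% of all genes. In MDP against GMP Tfeb was higher and Zeb1 lower, against 1.93% and 1.4%. In cDC1 against WT LMPP, 5 were higher (Tfeb, Nr4a3 and Klf9 most) and 4 lower, Klf5 and Klf10 among them, against 16.5% and 24.2% of all genes. Tfec and Tfeb were lower in WT LMPP than in LSK (1.83% of all genes), Mafk and Klf3 were lower in IRF8KO than in WT LMPP (4.74%), and 0 of 20 were called in d56kb against WT LMPP.

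Markers of other cells moved in the same comparisons, in which 11.3% of all genes were called higher and 10.7% lower in GMP, and 10.9% and 10.3% in MDP. Of 18 monocyte and macrophage genes, 11 were higher and 0 lower in MDP than in d56kb LMPP (median log2 0.78, 0 over all genes), led by Ly6c2 (0 in both d56kb LMPP libraries), F13a1 and Ms4a6c. In GMP 7 were higher and 1 lower, Csf1r, the receptor by which MDP were gated. Their summed cover was 147.3 and 147 scaled kb in d56kb LMPP, 209.7 and 205.2 in GMP and 257.5 and 273 in MDP. Of 14 neutrophil and granule genes, 7 were higher and 2 lower in GMP, and 6 higher and 1 lower in MDP. Their sum was 139.3 and 133.3 scaled kb in d56kb LMPP, 212.6 and 213.9 in GMP and 196 and 187.4 in MDP. In both GMP and MDP, 0 of the 14 were at 0 in both libraries, and in d56kb LMPP 1 was, Ly6g. The sums of the 12 stem and multipotent progenitor genes fell from 197.9 and 212.5 in d56kb LMPP to 127.1 and 124.5 in GMP and 95.6 and 87.8 in MDP. Sums for B cell genes were 66.3 to 78.6 in these 6 libraries, for T and NK cell genes 71.4 to 85.8, and for plasmacytoid DC genes 82.8 to 113.4. The cDC1 genes summed to 133.6 and 147.1, 142.9 and 133.9, and 178.8 and 167.1 in LMPP, GMP and MDP. The part of these cell types in the Zeb2, Mitf, Klf2 and Nr4a1 differences was not tested.

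The genes whose cover followed each member most closely over the 14 libraries, outside its own window, are given with Pearson's r as a description; the libraries share their groups, and no p is given. For Mitf they were Chka (0.92), Tcirg1 (0.91), a subunit of the lysosomal and osteoclast proton pump, and Ccl12 (0.91), a monocyte chemokine. For Zeb2 they were Washc3 (0.97), Coro1a (0.96), an actin-binding protein of leukocytes, and Rassf5 (0.96). For Klf2 they were Mef2c (0.94), Fgd3 (0.93) and Lonrf2 (0.93). For Nr4a1 they were Agtrap, Gm46294 and Mad2l2 (0.88 to 0.89), for Maf Trim32, Dip2c and Cpne8 (0.80 to 0.83), and for Klf4 Zfp930, Tex19.2 and Upp2 (0.79 to 0.80).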

How the data were processed

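H3K27ac was measured in 14 libraries, and IRF8 and CEBPA in 8; the 7 input samples were not analysed here. Per the submitters' processing notes, the tools were Bowtie 1.1.2 and HOMER 4.9, on mm10 (GRCm38). Per the file headers, the authors called H3K27ac regions in each library in the histone style (500-base peaks, stitched, 4-fold over input) and used the factor style for IRF8 (no input) and for CEBPA (with input, that of replicate 1 for both). The deposited columns used hold positions in bases. A constant score column in the deposited files was not used.

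Covered bases per coding gene (RefSeq spans of GRCm38.p6, 100 kb flanks) were scaled to the mean total covered length, and log2(bases + 1000) entered a model with 1 mean per group (limma 3.58.1, R 4.3.3, trend and robust), keeping genes covered in at least 2 libraries. There were 7 comparisons with 7 residual degrees of freedom and Benjamini-Hochberg adjustment. Windows of neighbouring genes overlap. The script was tested on simulated data. Peaks of both libraries overlap by at least 1 base. Motifs were searched on both strands of RefSeq promoter windows: TTGCNNAA (CEBP), TGACGTCA (CRE), GAGGAAGT (PU.1), CACGTG (E-box), CACCTG (ZEB), AAAGGTCA (NR4A), CCACACCC (KLF), and the IRF and ETS-IRF elements by name, which can overlap each other and PU.1. The 6 genes, 8 lists and tests were chosen with earlier results of these data known. Named were the 6 genes, up to 3 list genes per comparison and direction, the 3 most correlated genes, and elements by their pattern of calls. A gene of the lists that this rule names is not reported here. Depth and the lack of heights limit precision. Alternatives were no scaling, 50 kb flanks, the nearest gene, wider regions only, a pseudocount of 4000 bases, a replicate block, each left-out library, and a 50% overlap for peaks and elements.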

Additional observations from a re-analysis of the deposited data

How the results depend on the processing

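The calls at Mitf (GMP and MDP), Klf2 (GMP), Nr4a1 (GMP) and Zeb2 (MDP) against d56kb LMPP kept their direction and passed under all 10 alternatives. Log2 differences ran from 1.278 to 2.891 and 1.973 to 3.817 for Mitf, -1.022 to -0.6952 for Klf2, -1.734 to -0.5167 for Nr4a1 and 1.075 to 1.647 for Zeb2. Depth was lowest in IRF8KO LMPP, and the lists hold no heights. The cause of the changes below was not tested.

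Without scaling, 5 of the 6 genes were called lower in WT LMPP against LSK (all but Maf), 2 higher in d56kb against WT LMPP (Klf2 and Nr4a1) and 0 in MDP against GMP. All genes called were then 13336 for LMPP against LSK, 5728 for d56kb LMPP, 2824 for MDP against LMPP and 276 for MDP against GMP, against 534, 181, 4324 and 679. Signs turned without scaling for Klf2 (-0.7311) and Nr4a1 (-0.9648) in LMPP against LSK, for Klf4 (0.2033), Klf2 (0.2507) and Nr4a1 (0.5038) in cDC1, and for Klf4 in IRF8KO (-0.1113). In cDC1 the calls without scaling were Mitf and Nr4a1, both higher, in place of Klf2 and Zeb2. For Nr4a1 the limma adjusted p was then 0.0446, against 0.1443 with the scaling (log2 -0.2545). With 50 kb flanks, 236 genes were called for LMPP against LSK and 103 for d56kb LMPP, and signs turned for Klf4 (0.3262 in LMPP against LSK, -0.4039 in d56kb LMPP) and Maf (0.04589 in IRF8KO). The calls in cDC1 were then Mitf, higher, and Nr4a1, lower (log2 -0.4745, limma adjusted p = 0.01058), with those of Klf2 and Zeb2 lost. With the nearest gene, 0 of the 6 were called in cDC1, all genes called were 278, 3995, 1985, 1894 and 281 in LMPP against LSK, cDC1, GMP, MDP and MDP against GMP, and Klf2 turned in d56kb LMPP (-0.03872). With regions above the minimum width only, 1 of the 6 was called in cDC1 (Mitf, higher, with the Klf2 and Zeb2 calls lost), and 2113, 758 and 2874 genes in LMPP against LSK, d56kb LMPP and IRF8KO. Signs then turned for Nr4a1 (-0.08218) and Maf (-0.3554) in LMPP against LSK, Klf4 (0.7748) and Maf (0.3796) in cDC1, Klf4 in IRF8KO (-0.4283) and Maf in GMP (-0.01046). Elements gained or lost in IRF8KO fell from 6 to 0 with these regions and to 2 where calls had to cover 50% of an element. A pseudocount of 4000 bases gave 3 calls in MDP against GMP, adding Klf4 and Mitf.

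Where 1 library was left out, the other of its group was taken to vary like the rest. This gave 0 to 964 genes for LMPP against LSK, 2 to 702 for d56kb LMPP, 735 to 2856 for IRF8KO, 2278 to 2699 for GMP, 2276 to 2573 for MDP and 100 to 195 for MDP against GMP. The extremes were without WT LSK replicate 1 or 2 (0), WT LMPP replicate 1 (964, 702 and 735), d56kb LMPP replicate 2 (2), IRF8KO replicate 2 (2856) and GMP replicate 2 (100). Of the 6 genes, 1 to 2 were then called in cDC1 (Klf2 with Mitf in place of Zeb2 without WT LMPP replicate 2 or cDC1 replicate 2), 0 to 1 in IRF8KO (Zeb2, lower, without IRF8KO replicate 1), 2 in MDP and 0 to 1 in MDP against GMP. Signs turned within -0.4848 to 0.1978 (Klf4), -0.04745 to 0.1113 (Nr4a1) and -0.625 to 0.1669 (Mitf) in LMPP against LSK. They also turned within -0.2328 to 0.4497 (Klf4) and -0.001486 to 0.05533 (Klf2) in d56kb LMPP and -0.1473 to 0.5352 (Klf4) in IRF8KO. For Maf the ranges were -0.257 to 0.7661 in GMP, -0.5825 to 0.4406 in MDP and -0.7661 to 0.115 in MDP against GMP. Peaks of either single library numbered 34 to 37 for IRF8 in cDC1, 7 for IRF8 in monocytes and 38 to 42 for CEBPA in monocytes.

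With the replicate number as a block, 116 genes were called in d56kb against WT LMPP, and Klf2 in MDP had a limma adjusted p of 0.05843; no other call at the 6 genes changed. The numbers did not pair the samples: over 21 pairs of groups, same-numbered libraries had correlations of -0.06107 to 0.1236, with 1 over 0.1.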
